A study of Macaca mulatta with 20 samples.

Results

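Hepatic drug and organic ion transporters are the carriers and ATP-driven pumps that move drugs, bilirubin conjugates, organic anions and cations, carnitine and sterols across liver cell membranes. They were taken here as the genes of the SLCO (organic anion transporting polypeptide), SLC22A and SLC47A carrier families and of the ABCB, ABCC and ABCG pump families, by symbol, without the bile salt pump ABCB11 and the phospholipid pump ABCB4. Of 18288 genes, 57 matched, and 41 of these were kept because they had at least 10 estimated counts in 5 or more of 20 libraries.

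The libraries were bulk RNA-seq of liver biopsies from 10 rhesus monkeys (Macaca mulatta). The 5 caloric restriction animals (CR, numbers 004, 007, 008, 011 and 012) gave a biopsy at year 2, after 2 years on the restricted diet, and an earlier one at year 0, on enrolment. The 5 animals on the control diet (Control, numbers 001, 005, 006, 009 and 010) gave biopsies at the same times, which made 4 groups of 5 libraries. The labels used here give no strain, age, sex or degree of restriction, and the year 0 libraries of both arms were taken on enrolment, before the study diets. In what follows, values by library are listed in the order of the animal numbers.

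A hepatocyte takes up solutes from the blood through carriers in its sinusoidal membrane, mainly OATPs for large organic anions and SLC22 proteins for small anions and cations. After conjugation, solutes leave into bile through ATP-binding cassette pumps in the canalicular membrane, or return to the blood through pumps of the basolateral membrane. Nuclear receptors such as PXR (NR1I2), CAR (NR1I3) and FXR (NR1H4) and the liver factor HNF4A are known to control many of these genes.

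Library totals were 15421789 estimated counts in Control 009 at year 2 and 20883559 to 31440640 in the other 19. The 6 hepatocyte markers (ALB, APOA1, TTR, SERPINA1, TF, FGB) summed to between 73157 and 181580 TPM, and 5 of 6 kidney and gut markers, among them UMOD, AQP2, FABP2 and CDH16, stayed under 1 TPM in every library. The other one, VIL1, ran from 12.7 to 63.2 TPM. The year 2 libraries of Control 001 and 009 stood apart, with TMM scaling factors of 0.763 and 1.66 and albumin at 8.57% and 5.42% of counts, against 10.6% to 15.8% elsewhere. Control 009 at year 2 also held the lowest hepatocyte sum and the highest endothelial (563 TPM) and stellate cell (1039 TPM) marker sums of the 20 libraries. Fewer cells of a type and less RNA per cell cannot be told apart in bulk tissue. Control changes with an unadjusted p under 0.05 are given with and without both animals.

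The uptake carriers of large organic anions held much of the transporter RNA. TPM, a unit that corrects for gene length and sums to the same total in each library, was used to compare levels between genes. SLCO1B1 (OATP1B1), the main sinusoidal carrier of statins and bilirubin, averaged 1172 ± 337 TPM (SD, n = 20 libraries), the highest mean of the 41 genes, and alone held 21.1% to 52.1% (median 40.3%) of their summed TPM in a library. SLCO1B3 (OATP1B3), the close relative of SLCO1B1, averaged 313 ± 124 TPM and SLC22A7 (OAT2), a carrier of small organic anions such as nucleotides, 154 ± 63.1 TPM. SLCO1B3 was above SLC22A7 in 19 of 20 libraries, and SLC22A7 was above the pump ABCC2 in 18.

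The canalicular and sterol pumps came next. ABCC2 (MRP2), which exports bilirubin glucuronides into bile, averaged 78.5 ± 23.8 TPM, and the partners ABCG8 and ABCG5, which together secrete cholesterol and plant sterols into bile, averaged 70.2 ± 42.6 and 54.3 ± 18.6 TPM. These neighbours in the order did not separate, since ABCC2 was above ABCG8 in 14 of 20 libraries and ABCG8 above ABCG5 in 13. The other canalicular drug pumps were ABCG2 (BCRP), at 20.2 ± 6.79 TPM, and ABCB1 (P-glycoprotein), at 16.7 ± 4.92 TPM. ABCC9 (SUR2), a regulatory subunit of ATP-sensitive potassium channels that is best known from heart and vascular muscle, ranked 9 of 41 at 29.9 ± 10.9 TPM. Its relative ABCC8 (SUR1), of pancreatic beta cells, was at 0.261 ± 0.274 TPM.

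In all, 20 of the 41 genes averaged at least 10 TPM, 34 at least 1 TPM and 7 less than 1 TPM. The 7 were SLC22A15, SLCO1B7, ABCC11, ABCB9, SLC22A3, ABCC8 and ABCC12, of which ABCC12 was lowest at 0.167 ± 0.219 TPM. The 16 genes not kept included SLC22A6 (OAT1), SLC22A8 (OAT3), SLC22A2 (OCT2) and SLC47A2 (MATE2), which are best known from the kidney, and SLC22A9 (OAT7), known in humans as a liver carrier. SLC22A9 had at most 2 counts in any library. SLC22A6 had 0 counts in all 20, which allows up to 3 counts per library, or 0.0954 to 0.195 unscaled CPM depending on depth. The highest count of any gene not kept was 24, in SLC22A16. The row SLC22A18AS matched by symbol but names an antisense transcript, had at most 11 counts and was not kept.

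**Figure D1:**
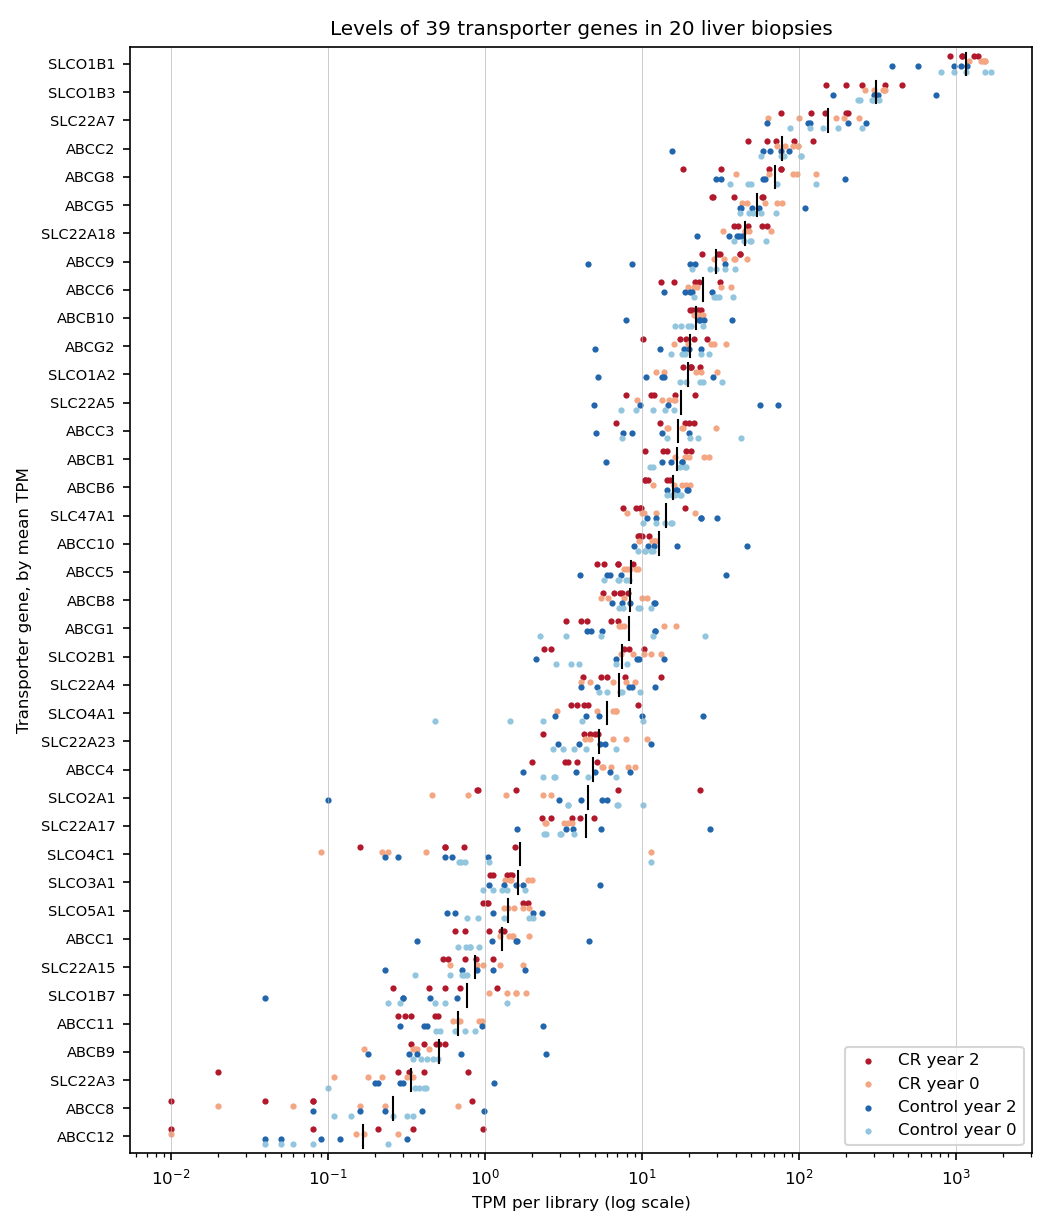
TPM per library (log scale) of 39 kept transporter genes, ordered by mean over 20 libraries, with 1 point per library coloured by group (5 per group) and a black line at the mean. SLCO1B1, SLCO1B3 and SLC22A7 stand above the rest, and the wide rows lower down include SLCO2A1, SLCO4C1, SLCO4A1, ABCC8, ABCC12 and SLC22A3. The 1 value of 0, for ABCC12, is not drawn.

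Before the diets began, the kept transporter genes spanned a wide range of variation between animals, given here as a description. Over the 10 year 0 libraries, the coefficient of variation of TPM had a median of 26.7% over the 41 genes, against 20.8% over 13755 genes that passed the same count minimum. It ran from 9.33% for ABCC10 (MRP7) to 171% for SLCO4C1. Among carriers and pumps of high level, it was 13.7% for SLCO1B3, 17.7% for ABCC2, 21.1% for SLCO1B1, 41.1% for SLC22A7 and 45.7% for ABCG8.

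The 2 main OATPs did not keep a fixed ratio. SLCO1B1 and SLCO1B3 lie next to each other in RefSeq's gene order on the T2T-MMU8v2.0 assembly, which is not the build of the counts and is used here for order only, and SLCO1A2 and SLCO1C1 flank them. The ratio of SLCO1B1 to SLCO1B3 TPM ran from 0.771, in Control 009 at year 2, to 7.31, with a median of 3.93. Across the 10 year 0 animals the log2 CPM of this pair had a Pearson r of 0.28 (permutation p = 0.43, Benjamini-Hochberg p = 0.64 over 3 pairs) and Spearman rho of 0.37 (permutation p = 0.30, Benjamini-Hochberg p = 0.44), with r = -0.01 without the 2 animals farthest from the median. The sterol pumps ABCG8 and ABCG5, which also lie side by side, had r = 0.74 (permutation p = 0.019, Benjamini-Hochberg p = 0.057) and Spearman rho = 0.75 (permutation p = 0.017, Benjamini-Hochberg p = 0.052). Without the 2 animals farthest from the median of ABCG8, r was 0.57 over 8 animals (permutation p = 0.15). The third pair, the conjugate pumps ABCC2 and ABCC3, had r = 0.11 (permutation p = 0.77, Benjamini-Hochberg p = 0.77) and rho = 0.15 (permutation p = 0.68, Benjamini-Hochberg p = 0.68), with r = -0.13 without 2 animals.

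The change over 2 years was tested within animals, paired by their numbers in the labels, as year 2 minus year 0. All 20 libraries entered 1 edgeR fit, and a gene was called at an adjusted p under 0.05 over all genes tested. CPM below are counts scaled to library size by TMM, and each log2 change is given with its standard error. No transporter gene was called in the CR change, in the Control change or in their difference, the diet by year interaction. No gene of the 13730 tested was called in any of the 3 either (0% in each). At an unadjusted p under 0.05, the CR change held 4 of 41 transporter genes (2.89% of all genes), the Control change 10 (14.6% of all genes), or 2 without Control 001 and 009 (7.75% of all genes), and the interaction 6 (6.85% of all genes). DESeq2 called 0, 2 and 0 transporter genes in the same comparisons, and 18 (0.131%), 210 (1.53%) and 41 (0.299%) of all 13730 genes.

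In CR, transporter genes were lower at year 2 more often than higher, with 29 of 41 log2 changes below 0, against 6841 of 13730 over all genes tested. The median was -0.18, against 0.00 over all genes tested. Without CR 012 the split was 25 lower and 16 higher, with a median of -0.115. On the authors' TPM scale, log2(TPM + 1), 36 transporter genes were tested and the split was 30 lower and 6 higher, with the median of all genes at -0.09. The 4 genes lower in 5 of 5 CR animals were ABCC4, ABCC11, ABCG1 and ABCC1, and 5.64% of all genes were lower in 5 of 5. No transporter gene was higher in 5 of 5 CR animals, against 6.55% of all genes. In Control 25 of 41 were below 0, against 6810 of 13730 over all genes, and the median was -0.07, against 0.00 over all genes. For the 36 genes tested on log2(TPM + 1), the Control split was 17 lower and 19 higher with the median of all genes at 0.12. The 4 genes lower in 5 of 5 Control animals were ABCC6, ABCG2, SLCO2A1 and SLCO4C1 (4.81% of all genes), and no transporter gene was higher in 5 of 5 (4.61% of all genes). No transporter gene was lower in 5 of 5 animals of both diets.

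**Figure D2:**
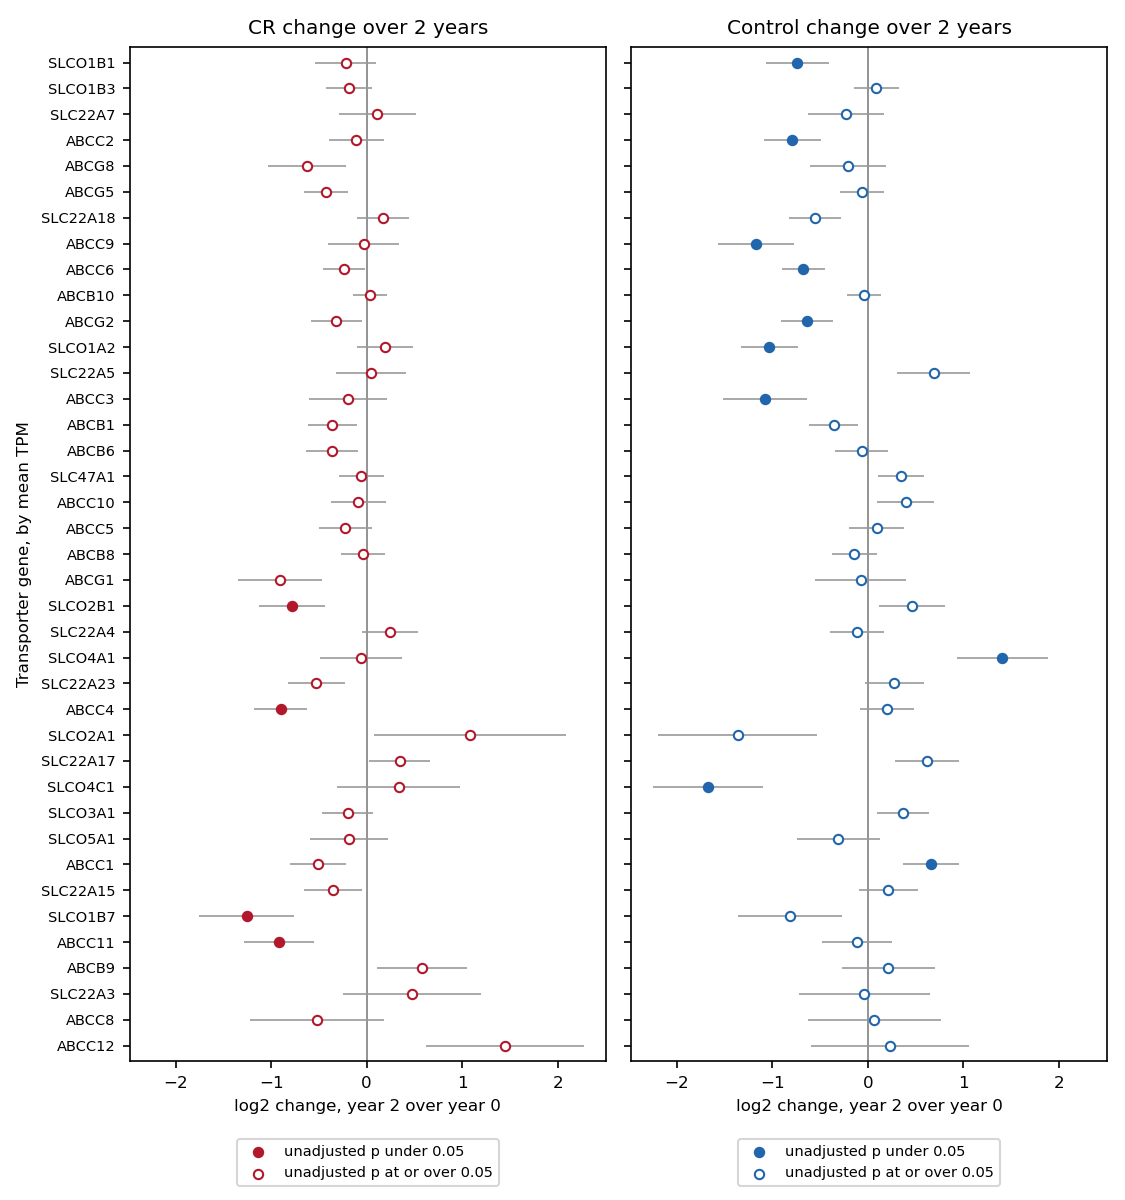
Log2 change (year 2 over year 0) with its standard error for 39 transporter genes, ordered by mean TPM, in the 5 CR animals on the left and the 5 Control animals on the right. Filled points have an unadjusted p under 0.05, 4 in CR and 10 in Control, and none of them passed the adjusted threshold.

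Among the sinusoidal uptake carriers, SLCO1B1 had 2342, 1779.9, 1685, 1959 and 1497 CPM in CR at year 2, against 2223, 2261, 2107, 1806 and 2306 CPM at year 0. The groups overlapped, and the log2 change was -0.22 ± 0.32. In Control it had 999.7, 1446, 1776, 556 and 1523 CPM at year 2, against 2530.4, 1446, 1700.3, 2598 and 1851 CPM at year 0. The low year 2 values were those of Control 001 and 009, and 2 of 5 animals were slightly higher. The Control log2 change was -0.74 ± 0.33 (edgeR quasi-likelihood test, adjusted p = 0.335) with all animals and -0.05 without Control 001 and 009.

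SLCO1A2 (OATP1A2), a carrier of bile salts, thyroid hormones and drugs, had 80.2, 99.6, 82.7, 79.5 and 87.7 CPM in CR at year 2, against 84.3, 52.9, 47.0, 91.9 and 121 CPM at year 0, and the year 2 values lay in a narrower band. The Control values were 34.7, 36.9, 53.3, 35.0 and 116 CPM at year 2, against 127, 82.1, 86.1, 105 and 102 CPM at year 0. It was lower in 4 of 5 Control animals and slightly higher in animal 010, whose year 2 value lay far above the other 4. Its Control change of -1.03 ± 0.30 log2 was the one of smallest p among transporter genes (edgeR quasi-likelihood test, adjusted p = 0.297), and so was its interaction of 1.22 ± 0.42 (edgeR quasi-likelihood test, adjusted p = 0.681). Without Control 001 and 009 the Control change was -0.54 and the interaction 0.73.

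SLCO1B3 had 643, 353, 249.6, 734 and 443 CPM in CR at year 2, a wider spread than the 471, 419, 547, 549.9 and 585 CPM at year 0. Control animals had 456, 465, 495, 780.3 and 513 CPM at year 2, against 480.1, 474, 449.5, 592 and 511 CPM at year 0. The highest of the 20 values was that of Control 009 at year 2, where SLCO1B1 was lowest. The log2 change was -0.18 ± 0.24 in CR and 0.09 ± 0.24 in Control.

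SLCO2B1 (OATP2B1), a carrier of steroid sulfates and statins found in many tissues, had 6.86, 6.01, 18.6, 24.3 and 21.0 CPM in CR at year 2, against 16.6, 30.4, 25.7, 23.7 and 20.9 CPM at year 0. CR animals 004 and 007 were far below their year 0 values, 008 was below by less, and 011 and 012 were slightly above. The log2 change was -0.78 ± 0.35 (edgeR quasi-likelihood test, adjusted p = 0.999) with all animals and -0.41 without CR 007. In Control it ran from 8.34 to 22.5 CPM at year 2 and 7.86 to 21.3 CPM at year 0, with 2 animals higher and 3 lower. The Control change was 0.46 ± 0.34, and the interaction was -1.24 ± 0.49 (edgeR quasi-likelihood test, adjusted p = 0.696). The summed TPM of 9 macrophage markers was also lowest in CR 004 and 007 at year 2, at 462 and 641, against 1345 to 1487 in the other 3 CR animals at year 2. It was 1301 to 1737 in the 5 CR libraries of year 0. The sum of 6 endothelial markers (of 8 listed) was low in the same 2 libraries, at 62.8 and 80.7 TPM. It was 146 to 164 TPM in the other 3 CR animals at year 2 and 137 to 180 TPM in CR at year 0. The part of macrophage or other cell content in the SLCO2B1 values was not tested.

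The anion carrier SLC22A7 had 316, 295, 169, 200.3 and 113 CPM in CR at year 2 and 257, 85.2, 132, 328 and 241 CPM at year 0. In Control it had 477, 75.8, 162, 235 and 162 CPM at year 2 and 345, 233, 139, 181 and 256 CPM at year 0. The 4 groups overlapped throughout, and its log2 changes were 0.11 ± 0.41 in CR and -0.23 ± 0.40 in Control.

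Of the cation and carnitine carriers, SLC22A5 (OCTN2), which brings carnitine into cells for fatty acid oxidation, ran from 14.1 to 39.7 CPM in CR at year 2 and 16.0 to 29.6 CPM at year 0. Control animals had 15.0, 90.0, 17.5, 84.5 and 27.1 CPM at year 2, where animals 005 and 009 stood above all other libraries, and 16.5, 29.6, 32.9, 23.6 and 13.9 CPM at year 0. Its neighbour on the chromosome, the ergothioneine carrier SLC22A4 (OCTN1), ran from 5.28 to 17.1 CPM in CR at year 2 and 4.62 to 10.3 CPM at year 0, and 5.30 to 10.4 CPM in Control at year 2 and 7.33 to 11.8 CPM at year 0. SLC22A3 (OCT3), a carrier of monoamines, had at most 1.53 CPM in any library.

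**Figure D3:**
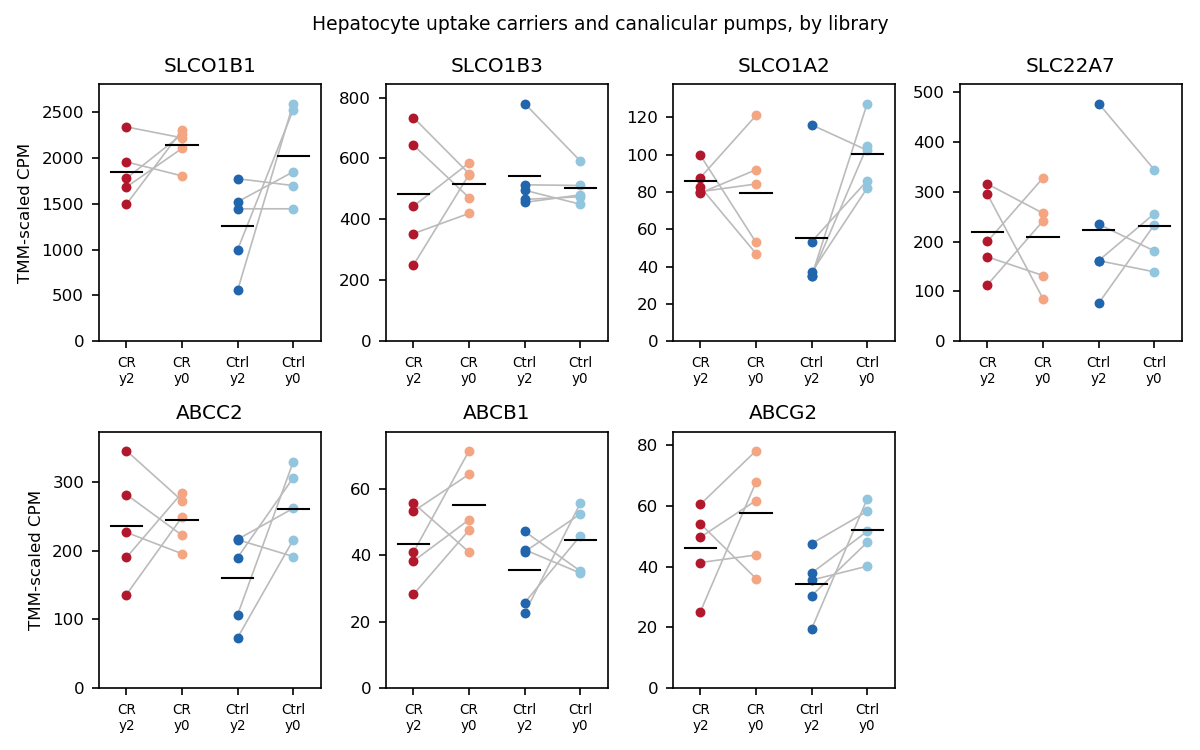
CPM on the TMM scale per library of 4 uptake carriers and 3 canalicular pumps, with CR at year 2 and year 0 and then Control at year 2 and year 0. Points are animals (5 per group), grey lines join the biopsies of an animal and black bars are group means. The CR groups overlap in each panel, and the low Control values at year 2 of SLCO1B1 and ABCC2 are those of animals 001 and 009.

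SLC47A1 (MATE1), the proton antiporter that passes organic cations into bile, had 37.4, 18.5, 17.8, 16.2 and 14.3 CPM in CR and 36.5, 47.1, 42.4, 27.1 and 19.7 CPM in Control at year 2. At year 0 it had 37.2, 17.3, 13.7, 17.9 and 22.2 CPM in CR and 24.8, 25.9, 20.6, 31.1 and 28.7 CPM in Control. CR animal 004 was the high value of its group in both years, and the arms overlapped at both times. The year 2 difference was -0.74 ± 0.31 log2 (edgeR quasi-likelihood test, adjusted p = 0.659) and -0.81 without Control 001 and 009.

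The 3 canalicular drug pumps had log2 changes below 0 in both arms, except that the Control change of ABCB1 was 0.13 without Control 001 and 009. ABCC2 had 227, 282, 136, 345 and 190.1 CPM in CR at year 2, against 196, 222, 249, 273 and 284 CPM at year 0, which overlapped. In Control it had 73.7, 216, 216, 107 and 190.1 CPM at year 2, against 216, 192, 262, 329 and 306 CPM at year 0. Its Control change was -0.79 ± 0.30 (edgeR quasi-likelihood test, adjusted p = 0.313) with all animals and -0.24 without Control 001 and 009, which held the lowest values. ABCG2, which exports sulfated conjugates and many drugs, had 49.7, 54.1, 41.4, 60.5 and 25.2 CPM in CR at year 2 and 61.8, 36.1, 43.8, 78.1 and 67.8 CPM at year 0, which overlapped. The Control values were 19.5, 37.9, 30.4, 35.6 and 47.6 CPM at year 2, against 62.3, 51.6, 48.0, 40.2 and 58.2 CPM at year 0. Each Control animal was lower at year 2, and the log2 change was -0.64 ± 0.27 (edgeR quasi-likelihood test, adjusted p = 0.323), or -0.44 without Control 001 and 009. ABCB1 averaged 43.3 ± 11.3 CPM in CR at year 2 and 55.1 ± 12.6 CPM at year 0, and 35.7 ± 10.8 CPM in Control at year 2 and 44.8 ± 9.61 CPM at year 0 (SD, n = 5 each).

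The 3 sterol pumps had log2 changes below 0 in CR, at -0.43 ± 0.23 for ABCG5 and -0.62 ± 0.41 for ABCG8, with ABCG1 below. Their Control changes were smaller than their standard errors, at -0.06 ± 0.23 for ABCG5, -0.07 ± 0.48 for ABCG1 and -0.20 ± 0.40 for ABCG8. ABCG5 and ABCG1 were higher in 3 of 5 Control animals. None of these changes had an unadjusted p under 0.05, and the Control change of ABCG1 was 0.39 without Control 001 and 009. ABCG1, which loads cholesterol onto lipoproteins and is best known from macrophages, had 7.31, 5.65, 10.5, 11.3 and 7.78 CPM in CR at year 2, against 21.5, 11.4, 11.0, 25.9 and 12.5 CPM at year 0. Each CR animal was lower at year 2, by a wide margin in 004 and 011 and a small one in 008, for a log2 change of -0.91 ± 0.44 (edgeR quasi-likelihood test, adjusted p = 0.999). In Control the values ran from 7.32 to 19.4 CPM at year 2 and 4.10 to 40.3 CPM at year 0, where animal 001 was the high value. ABCG5 averaged 66.5 ± 24.5 CPM in CR at year 2 and 87.5 ± 23.7 CPM at year 0, and ABCG8 averaged 81.9 ± 41.9 and 119 ± 48.5 CPM at the same times. In Control, ABCG5 averaged 87.5 ± 34.1 CPM at year 2 and 87.4 ± 14.9 CPM at year 0, and ABCG8 99.7 ± 62.6 and 103 ± 49.0 CPM (SD, n = 5 each).

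The basolateral and other ABCC pumps included the single CR change of smallest p, that of ABCC4. ABCC4 (MRP4), which exports bile salts and cyclic nucleotides to the blood, had 19.0, 13.6, 11.4, 10.4 and 7.02 CPM in CR at year 2, against 28.2, 17.7, 25.8, 20.4 and 18.6 CPM at year 0. It was lower in 5 of 5 CR animals, and the groups overlapped only through animal 004 at year 2. The log2 change was -0.90 ± 0.28, and this smallest p among the CR changes was far from the threshold after adjustment (edgeR quasi-likelihood test, adjusted p = 0.999). In Control, ABCC4 had 9.46, 11.0, 20.4, 17.5 and 16.9 CPM at year 2 and 22.3, 10.7, 17.0, 8.60 and 9.50 CPM at year 0, with 4 animals higher and 1 lower. The interaction was -1.10 ± 0.40 (edgeR quasi-likelihood test, adjusted p = 0.681).

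ABCC11 (MRP8), an exporter of lipophilic anions, had 1.44, 0.889, 0.770, 1.35 and 0.992 CPM in CR at year 2, against 1.78, 2.40, 2.49, 1.67 and 1.84 CPM at year 0. It was lower in 5 of 5 CR animals, as were 5.64% of all genes. The log2 change was -0.92 ± 0.37 (edgeR quasi-likelihood test, adjusted p = 0.999). In Control, ABCC11 ran from 1.14 to 4.02 CPM at year 2 and 1.38 to 2.71 CPM at year 0. Its mean over 20 libraries was 0.674 TPM. ABCC1 (MRP1), an exporter of glutathione conjugates that is low in resting hepatocytes, had 2.66, 2.99, 5.04, 4.62 and 4.25 CPM in CR at year 2, against 6.78, 5.10, 5.29, 5.48 and 4.69 CPM at year 0, and 2.29, 5.14, 5.92, 10.9 and 4.21 CPM in Control at year 2, against 2.98, 3.99, 3.22, 3.34 and 2.61 CPM at year 0. It was lower in 5 of 5 CR animals and higher in 4 of 5 Control animals, most in 009. The log2 change was -0.51 ± 0.29 in CR and 0.66 ± 0.30 in Control, and the interaction was -1.17 ± 0.41 (edgeR quasi-likelihood test, adjusted p = 0.681). The Control change was 0.42 without Control 009 alone and 0.66 without Control 001 and 009, where the interaction was -1.17.

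ABCC3 (MRP3), which returns glucuronides to the blood, had 23.8, 21.5, 14.2, 22.6 and 7.74 CPM in CR at year 2 and 30.3, 15.1, 18.3, 19.2 and 15.7 CPM at year 0. Control animals had 9.21, 18.9, 14.4, 5.19 and 9.43 CPM at year 2, against 45.8, 9.42, 17.6, 27.0 and 22.6 CPM at year 0. Its Control change of -1.07 ± 0.44 (edgeR quasi-likelihood test, adjusted p = 0.320) became -0.17 without Control 001 and 009. ABCC6 (MRP6), a liver pump whose loss in humans causes pseudoxanthoma elasticum, ran from 4.33 to 9.65 CPM in CR at year 2 and 5.91 to 11.0 CPM at year 0. In Control it had 7.53, 7.64, 5.79, 4.10 and 6.64 CPM at year 2, against 11.7, 7.90, 10.1, 10.7 and 9.50 CPM at year 0. It was lower in 5 of 5 Control animals, as were 4.81% of all genes. The change was -0.68 ± 0.22 (edgeR quasi-likelihood test, adjusted p = 0.309), or -0.44 without Control 001 and 009. ABCC10 ran from 26.7 to 33.5 CPM in CR at year 2, against 75.5, 28.5, 23.9, 80.7 and 30.1 CPM in Control at year 2, high in animals 001 and 009. Its year 2 difference of -0.76 ± 0.34 log2 became 0.05 without those 2 animals. ABCC5 (MRP5), a cyclic nucleotide exporter, ran from 13.9 to 23.9 CPM in CR at year 2 and 18.9 to 22.2 CPM at year 0. The Control values were 17.8, 14.3, 14.3, 63.2 and 18.3 CPM at year 2, with animal 009 far above the rest, and 16.8 to 23.0 CPM at year 0. ABCC12 was under 3 CPM in every library and was not tested in the fits of a single year.

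The channel subunit ABCC9 had 128, 165, 115, 153 and 94.2 CPM in CR at year 2 and 117, 164, 136, 103 and 145 CPM at year 0. Control animals had 27.6, 64.9, 123, 19.998 and 81.1 CPM at year 2, against 142, 89.3, 113, 138 and 113 CPM at year 0. The low values were again Control 001 and 009. Its Control change was -1.17 ± 0.40 (edgeR quasi-likelihood test, adjusted p = 0.309) with all animals and -0.25 without Control 001 and 009, and its year 2 difference between the arms was 1.04 ± 0.43 (edgeR quasi-likelihood test, adjusted p = 0.659) and 0.55. The summed TPM of 7 stellate cell markers was 78.9 in Control 001 and 1039 in Control 009 at year 2, the lowest and the highest of the 20 libraries. The part of cell content in the ABCC9 values was not tested.

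Of the ABCB genes of organelles, none had an unadjusted p under 0.05 in either change. ABCB6, a porphyrin carrier, averaged 21.5 ± 4.75 CPM in CR at year 2 and 27.6 ± 5.83 CPM at year 0, and 30.5 ± 13.9 CPM in Control at year 2 and 29.5 ± 2.62 CPM at year 0 (SD, n = 5 each). In Control 001 at year 2, ABCB8 had 50.8 CPM and ABCB10 28.2 CPM, against 16.1 to 19.1 and 46.7 to 51.4 CPM in the other Control animals. The lysosomal peptide pump ABCB9 was under 3 CPM in every library.

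The remaining OATPs held the genes of widest spread. SLCO4C1, a carrier of digoxin and thyroid hormone best known from the kidney, had 5.10, 1.78, 2.24, 1.64 and 0.516 CPM in CR at year 2 and 32.5, 0.259, 0.685, 1.23 and 0.646 CPM at year 0. In Control it had 5.14, 0.593, 0.826, 1.05 and 1.88 CPM at year 2 and 34.0, 2.39, 2.55, 2.32 and 3.32 CPM at year 0. The 2 year 0 values over 30, in CR 004 and Control 001, stood apart from all other libraries, and the year 2 biopsies of the same 2 animals were the highest of their groups. The 6 kidney and gut markers summed to 21.2 TPM in CR 004 and 24.0 TPM in Control 001 at year 0, within the 12.8 to 63.4 TPM of all 20 libraries. This sum was nearly all VIL1 (12.7 to 63.2 TPM), since the other 5 markers stayed under 1 TPM in every library. It therefore cannot measure kidney content. The part of other tissue in the SLCO4C1 values was not tested. SLCO4C1 was lower in 5 of 5 Control animals, with a log2 change of -1.67 ± 0.58 (edgeR quasi-likelihood test, adjusted p = 0.309) and -1.43 without Control 001 and 009. Its CR change was 0.33 ± 0.64. The interaction was 2.01 ± 0.86 (edgeR quasi-likelihood test, adjusted p = 0.720) and ran from 0.556 to 2.79 over the alternatives.

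SLCO4A1, a thyroid hormone carrier of many tissues, had 7.18, 5.44, 13.6, 6.01 and 5.87 CPM in CR at year 2 and 9.36, 8.94, 9.28, 7.23 and 4.15 CPM at year 0. The Control values were 6.67, 30.6, 6.20, 9.06 and 7.83 CPM at year 2, against 0.682, 6.99, 3.78, 16.2 and 2.16 CPM at year 0. It was higher in 4 of 5 Control animals and lower in 009, with the highest value in 005, for a log2 change of 1.41 ± 0.47 (edgeR quasi-likelihood test, adjusted p = 0.309). The interaction was -1.47 ± 0.64 (edgeR quasi-likelihood test, adjusted p = 0.720). Without Control 001 and 009 the Control change was 1.60 and the interaction -1.66. SLCO1B7 is a close relative of SLCO1B3, and shared reads may have been divided between the genes. SLCO1B7 had 0.632, 0.747, 0.455, 1.20 and 0.278 CPM in CR at year 2, against 1.78, 1.55, 1.53, 1.03 and 1.43 CPM at year 0. It was lower in 4 of 5 CR animals, for a log2 change of -1.26 ± 0.50 (edgeR quasi-likelihood test, adjusted p = 0.999). In Control it was also lower in 4 of 5 animals, with a change of -0.81 ± 0.54, and the interaction was -0.45 ± 0.75. SLCO3A1 and SLCO5A1 stayed under 10 CPM.

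**Figure D4:**
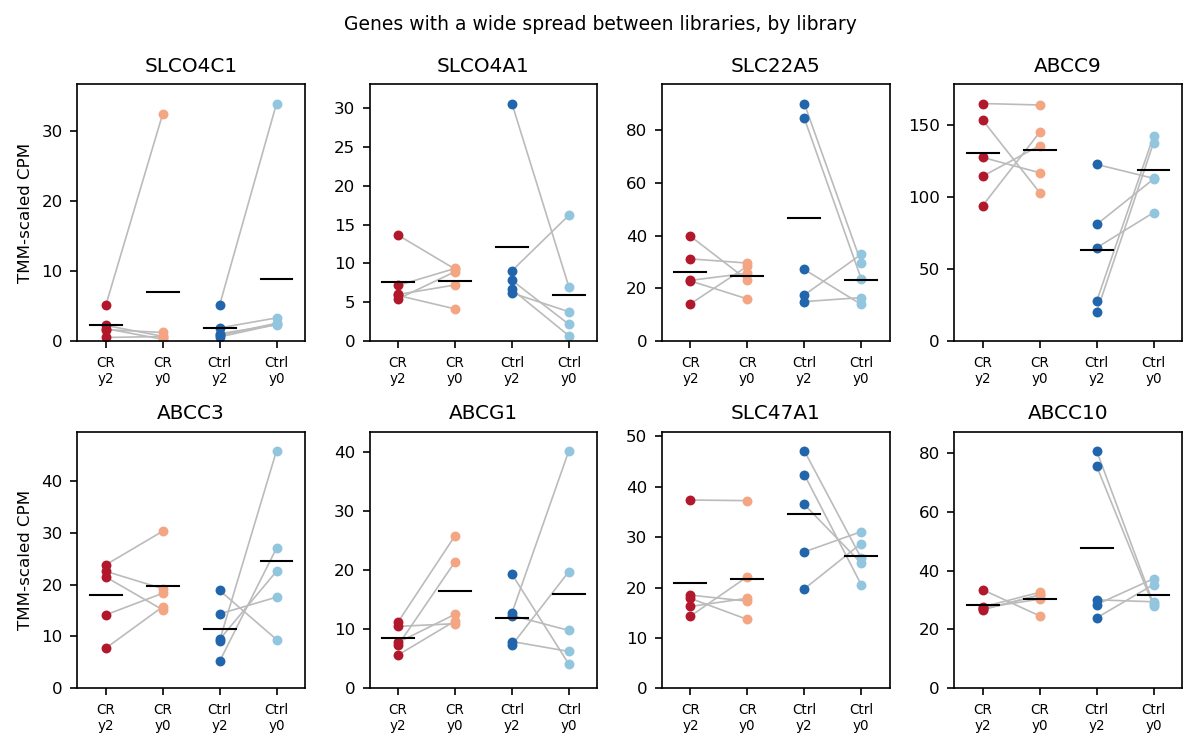
CPM on the TMM scale per library of 8 genes with a wide spread between libraries, with CR at year 2 and year 0 and then Control at year 2 and year 0. Points are animals (5 per group), grey lines join the biopsies of an animal and black bars are group means. SLCO4C1 is over 30 CPM at year 0 in CR 004 and Control 001, and SLC22A5 is 84.5 and 90.0 CPM at year 2 in Control 009 and 005.

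The 4 orphan SLC22 genes gave no change with an unadjusted p under 0.05 in either arm. SLC22A23 averaged 15.1 ± 4.27 CPM in CR at year 2 and 22.1 ± 8.27 CPM at year 0, and 19.0 ± 9.26 CPM in Control at year 2 and 14.8 ± 4.87 CPM at year 0. SLC22A18, a proton-linked carrier from an imprinted region, averaged 34.8 ± 8.65 CPM in CR at year 2 and 30.8 ± 7.80 CPM at year 0, and 26.6 ± 13.1 CPM in Control at year 2 and 35.2 ± 4.22 CPM at year 0 (SD, n = 5 each). Since the use of strand in counting is not given, its reads and those of its antisense partner cannot be told apart. SLC22A17, a receptor for lipocalin-2, had 20.6 CPM in Control 009 at year 2 and no more than 7.09 CPM elsewhere.

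At year 0, before the diets, no transporter gene passed the threshold between the arms. Of 40 transporter genes tested, 0 were called, against 32 of 13244 genes (0.242%). The count over all genes ranged from 3 to 340 when each animal was left out in turn, with 340 without Control 001. At an unadjusted p under 0.05 there were 6 transporter genes, or 15.0%, against 18.3% of all genes. DESeq2 called 3 transporter genes and 780 of all 13244 genes (5.89%). With limma on log2(TPM + 1) and log2(TPM + 0.1), 2 transporter genes were called in each, against 3.09% and 2.79% of all genes, and 1 against 1.64% with no filter on low values. There were 22 genes higher and 18 lower in CR, against 6321 higher and 6923 lower of all genes. The median was 0.04 against -0.01 over all genes. For the 34 genes tested on log2(TPM + 1), 24 were higher and 10 lower, with the median of all genes at 0.12. The arms did not overlap in 3 transporter genes, against 4.99% of all genes.

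ABCC1 had 6.78, 5.10, 5.29, 5.48 and 4.69 CPM in CR, against 2.98, 3.99, 3.22, 3.34 and 2.61 CPM in Control at year 0. Every CR value was above every Control value, and the log2 difference was 0.76 ± 0.15 (edgeR quasi-likelihood test, adjusted p = 0.0628). SLCO2A1, the prostaglandin carrier, had 3.12, 6.06, 5.32, 1.07 and 1.87 CPM in CR, against 7.97, 9.46, 18.8, 27.1 and 17.6 CPM in Control at year 0. Every CR value was below every Control value, and the difference was -2.21 ± 0.48 (edgeR quasi-likelihood test, adjusted p = 0.0731). At year 2 SLCO2A1 had 2.35, 4.02, 2.17, 16.7 and 59.3 CPM in CR, high in 012, and 0.407, 8.59, 14.2, 8.44 and 7.19 CPM in Control, so the arms overlapped. ABCB9 was the third gene without overlap, at 0.551 ± 0.155 CPM in CR and 0.811 ± 0.133 CPM in Control (SD, n = 5 each; edgeR quasi-likelihood test, adjusted p = 0.292).

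SLCO1B7 averaged 1.46 ± 0.274 CPM in CR and 0.635 ± 0.449 CPM in Control at year 0, for a difference of 1.19 ± 0.39 (edgeR quasi-likelihood test, adjusted p = 0.152). SLCO2B1 averaged 23.4 ± 5.18 CPM in CR and 13.0 ± 5.85 CPM in Control at year 0, for a difference of 0.85 ± 0.28 (edgeR quasi-likelihood test, adjusted p = 0.153). ABCC4 and SLC22A15, a carrier of zwitterions, differed by 0.71 ± 0.26 and 0.62 ± 0.28 log2, and the difference of SLC22A15 was 0.39 without CR 008. Removing Control 001, the high Control value of SLCO1B7 and ABCC4, left 4 transporter genes past the threshold (ABCC1, SLCO2A1, SLCO1B7 and ABCC4), while 340 of all 13347 genes passed it (2.55%). Removing Control 001 and 009 left 1, SLCO1B7, and 228 of all 13478 genes (1.69%).

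The summed TPM of 9 macrophage markers at year 0 was 1301 to 1737 TPM in CR and 679 to 1240 TPM in Control, without overlap, and the sum of 6 endothelial markers (of 8 listed) was 137 to 180 TPM in CR and 78.6 to 148 TPM in Control. ABCC1 and SLCO2B1 were higher in the same arm as the macrophage sum, and SLCO2A1 was lower in the arm with the higher endothelial sum. The part of cell content in these differences was not tested. The year 0 values enter both the year 0 comparison and the CR and Control changes, so a gene high in CR at year 0, such as ABCC1 or ABCC4, and its lower value at year 2 are not separate observations.

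**Figure D5:**
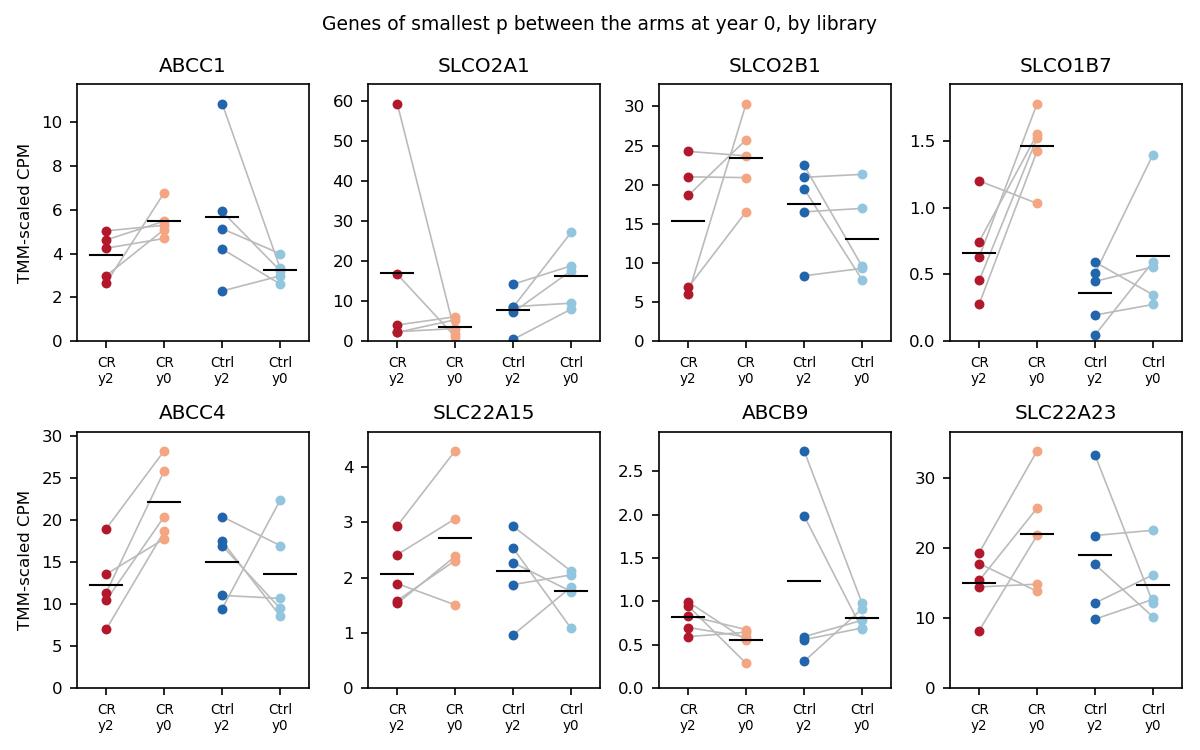
CPM on the TMM scale per library of the 8 transporter genes of smallest p between the arms at year 0, with CR at year 2 and year 0 and then Control at year 2 and year 0. Points are animals (5 per group), grey lines join the biopsies of an animal and black bars are group means. At year 0 the CR points of ABCC1 lie above the Control points, those of SLCO2A1 and ABCB9 lie below, and the arms overlap at year 2.

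At year 2, 0 of 40 transporter genes were called between the arms, as were 0 of 13345 genes (0%), and DESeq2 called 0 transporter genes and 7 of all genes (0.0525%). At an unadjusted p under 0.05 there were 3, ABCC9, SLC47A1 and ABCC10 (7.03% of all genes), and 0 without Control 001 and 009 (3.29% of all genes). No transporter gene separated the arms without overlap, against 0.757% of all genes. There were 18 genes higher and 22 lower in CR, against 5833 higher and 7512 lower of all genes. The median was -0.10 against -0.07 over all genes.

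Other genes of the pathway gave no call either. Of 51 listed (bile salt and phospholipid transport, regulators, membrane anchors, and further drug and nucleoside carriers), 45 were tested, and 0 were called in the CR change, the Control change, the interaction or at year 0 or year 2, with 2, 7, 2, 6 and 3 at an unadjusted p under 0.05. These are 4.44%, 15.6%, 4.44%, 13.3% and 6.67% of the 45, against 2.89%, 14.6%, 6.85%, 18.3% and 7.03% of all genes. The sinusoidal bile salt carrier SLC10A1 (NTCP) averaged 226 ± 102 CPM in Control at year 2 and 385 ± 47.1 CPM at year 0, lower in 5 of 5 animals, for a log2 change of -0.88 ± 0.27 (edgeR quasi-likelihood test, adjusted p = 0.305), or -0.45 without Control 001 and 009. SLC51A, a subunit of the basolateral bile salt exporter, had a log2 change of 1.15 ± 0.42 in CR (edgeR quasi-likelihood test, adjusted p = 0.999), higher in 4 of 5 animals. In Control its change was 0.89 ± 0.40 (edgeR quasi-likelihood test, adjusted p = 0.335), higher in 5 of 5, or 0.61 without Control 001 and 009. The partner of the dioxin receptor, ARNT, had a Control change of -0.72 ± 0.20 (edgeR quasi-likelihood test, adjusted p = 0.297), or -0.33 without Control 001 and 009.

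Most transporter genes are represented by a single transcript in the deposited tables, 34 of 41, and 7 have several (ABCB9, ABCC4, ABCC5, ABCC9, ABCG1, SLC22A17 and SLC22A18). Shares of transcript TPM are given as a description. ABCG1 RNA was split between transcripts numbered 05, 04 and 02 in the authors' names, with mean shares of 52.3%, 34.9% and 12.8% over 20 libraries. In CR, transcript 05 took 42.4% ± 13.7 at year 2 and 63.6% ± 13.0 at year 0, and transcript 04 took 51.3% ± 15.9 at year 2 and 33.4% ± 9.05 at year 0 (SD, n = 5 each). In Control, transcript 05 took 52.1% ± 30.5 at year 2 and 51.1% ± 30.8 at year 0, and transcript 04 took 24.5% ± 17.2 and 30.5% ± 8.70. Transcript 02 took 23.4% ± 24.9 and 18.4% ± 29.1 in Control at year 2 and year 0, and 6.31% ± 8.67 and 2.97% ± 6.63 in CR. ABCC4 and ABCC9 came almost wholly from a single transcript in all groups.

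The authors' deposited table of test results lists 3071 genes without naming the comparison or its direction. In the authors' deposited table, ABCC1 has a log2 fold change of -1.30 (adjusted p = 0.00895) and SLCO2B1 one of -1.37 (adjusted p = 0.0158). For the mitochondrial pump ABCB10, the authors' deposited table gives -0.05 (adjusted p = 0.905). Of all genes in the authors' deposited table, 514 (16.7%) have an adjusted p under 0.05.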

How the data were processed

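Estimated (expected) counts per gene and TPM per gene and per transcript were deposited by the authors, 1 column per library, for 18288 genes and 22181 transcripts. The submitters' processing notes list STAR, RSEM, DESeq2 and Mmul_8.0.1 (rheMac8), with no version or role for any tool. Libraries were TruSeq, paired-end, per the labels' protocols. Neither the annotation nor the use of strand in counting is given in the sources used here. The estimated counts the authors deposited are not normalized and 4.37% are not whole, and they were rounded to whole numbers here. The authors' deposited table of log2 fold changes, p-values, adjusted p-values and a mean signal (normalized counts), per the file headers, names no comparison. FPKM tables were not used here.

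Genes were kept by filterByExpr, scaled by TMM and tested, two-sided, with the quasi-likelihood F test (robust) of edgeR 4.0.16 in R 4.3.3, with Benjamini-Hochberg adjustment over all genes and a threshold of 0.05. Standard errors were derived from the log2 change and the F statistic. The CR change, the Control change and their interaction came from 1 fit of 20 libraries with a term per animal, and CR against Control at each year from 10 libraries. Biopsies were paired by the animal number in the labels. Within an animal, deviations from the group mean at both times had correlations that ran from -0.30 to 0.17. In 2 of 10 animals this own value exceeded the highest value with another animal. The expression values thus did not mark the biopsies of an animal as alike, and the pairing rests on the labels. Each library is a different biopsy, and 0 pairs of libraries held identical values. Totals ran from 15421789 to 31440640 counts, and floors on counts of 0 cover counting error only. The fits were tested on simulated data.

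Alternatives were RLE scaling, DESeq2 1.42.0, no filter on low counts, limma 3.58.1 on log2(TPM + 1) and log2(TPM + 0.1) for genes with at least 1 TPM in 5 or more libraries and for all genes, no replicate block, leaving out each animal, and leaving out Control 001 and 009 together. The members, gene lists and marker lists were chosen with earlier results of these data known. Named genes were a panel of 23 well-known transporters, any gene called, and the 3 of smallest p in each comparison; others named were chosen after their values were seen. The values of some listed genes and markers are not reported here. The RefSeq gene table matched 55 of 57 symbols and was used for gene order only.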

Additional observations from a re-analysis of the deposited data

Results flagged for a closer look

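In each of the 4 groups of 5 libraries, the highest or lowest value of a gene was set against the other 4, by the gap to its nearest neighbour over the range (Dixon's criterion of 0.71). Of 164 gene and group combinations, 22 (13.4%) held such a library, in 17 genes, where chance gives about 1 in 20. The same criterion held in 9.49% of the gene and group combinations of 13755 genes with the same count minimum. In Control at year 2 it held for 11 of 41 transporter genes and 16.9% of all genes, and Control 001 and 009 held 9 of the 11. Nothing particular to the transporter genes is read from these counts. Values are CPM on the TMM scale.

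At year 2, CR 004 was high for SLC47A1 at 37.4 CPM (others 14.3 to 18.5), ABCC8 at 2.57 CPM (others 0.0350 to 0.238) and ABCC10 at 33.5 CPM (others 26.7 to 27.7), CR 012 for SLCO2A1 at 59.3 CPM (others 2.17 to 16.7) and CR 008 for SLCO4A1 at 13.6 CPM (others 5.44 to 7.18).

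In Control 009 at year 2, 5 genes stood above the other Control animals: ABCC5 at 63.2 CPM (others 14.3 to 18.3), SLCO1B3 at 780.3 CPM (others 456 to 513), SLC22A17 at 20.6 CPM (others 2.95 to 7.09), SLCO3A1 at 9.49 CPM (others 3.19 to 4.83) and SLC22A3 at 1.29 CPM (others 0.344 to 0.611). This library also held the highest stellate and endothelial marker sums, at 1039 and 563 TPM, and the part of cell content in these values was not tested. In Control 001 at year 2, ABCB8 at 50.8 CPM (others 16.1 to 19.1), ABCC8 at 4.58 CPM (others 0.229 to 0.703) and SLCO4C1 at 5.14 CPM (others 0.593 to 1.88) were high and ABCB10 at 28.2 CPM (others 46.7 to 51.4) was low. In the same group, animal 005 was high for SLCO4A1 at 30.6 CPM (others 6.20 to 9.06) and animal 010 for SLCO1A2 at 116 CPM (others 34.7 to 53.3).

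The year 0 biopsy of CR 004 had SLCO4C1 at 32.5 CPM (others 0.259 to 1.23) and ABCC3 at 30.3 CPM (others 15.1 to 19.2), both high. The year 0 biopsy of Control 001 had SLCO4C1 at 34.0 CPM (others 2.32 to 3.32), SLCO1B7 at 1.40 CPM (others 0.275 to 0.596) and ABCC12 at 0.682 CPM (others 0.119 to 0.260) on the high side and SLC22A3 at 0.179 CPM (others 0.707 to 0.868) on the low side. SLCO4C1 was thus over 30 CPM at year 0 in 1 animal of each arm and at most 3.32 CPM in the other 8 animals.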

How the results depend on the processing

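The count of transporter genes called was 0 in the CR change, the interaction and at year 2 under each alternative run. In the Control change DESeq2 called 2 (SLCO1A2 and SLCO4A1; 1.53% of all genes), and the other alternatives called 0. At year 0 the count was 3 with DESeq2 (ABCC1, SLCO2A1 and SLCO2B1; 5.89% of all genes), 2 with limma on log2(TPM + 1) and 2 on log2(TPM + 0.1) (ABCC1 and SLCO2A1; 3.09% and 2.79% of all genes), 1 with limma on all genes (ABCC1; 1.64%), 1 without Control 001 and 009 together (SLCO1B7; 1.69%), and 0 to 4 when each animal was left out in turn, with 4 without Control 001 (2.55%). With all animals edgeR called 0.242% of all genes. The fit with no replicate block (no term per animal) called 0 in each comparison and changed no call. The year 2 difference of ABCC10 reversed to 0.0461 log2 without Control 001 and 009. Of 518 alternative values of 29 named log2 changes, 502 kept direction and side of the threshold, 15 passed the threshold and 1 reversed. Transporter genes at an unadjusted p under 0.05 numbered 2 in place of 10 in the Control change (7.75% of all genes in place of 14.6%) and 0 in place of 3 at year 2 (3.29% in place of 7.03%) without Control 001 and 009, where fewer libraries were also fitted. The TPM scale moved the median log2 value of all genes by over 0.1, to 0.12 in the Control change, -0.20 in the interaction and 0.12 at year 0. The cause of the differences between tools was not tested. With 5 animals an arm, an exact test of paired directions cannot go below p = 0.0625, and genes under about 1 TPM rest on few counts.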
